A study of Mus musculus with 12 samples.

Results

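The interferon regulatory factors and a small group of interferon-stimulated genes were followed in BW5147, an established mouse thymic T lymphoma line. The set comprised the transcription factors Irf1, Irf2, Irf3, Irf4, Irf7, Irf8 and Irf9 together with Usp18, Isg15 and Ifit1. Members were all probe sets whose annotation gave 1 symbol equal to one of these 10 names, which yielded 14 probe sets of 9 genes among 22626 probe sets and 12393 singly annotated genes on the array. The only Isg15 probe set carried several symbols and was left out. Cells were treated for 8 h and total RNA was hybridised to Affymetrix arrays, 2 in each of 6 groups. The groups were unstimulated cells, cells exposed to 100 ng/ml of the steroid dexamethasone (Dex), which activates the glucocorticoid receptor, cells given the cytokine IL-9 (100 U/ml), cells given the chemokine CCL1 (100 U/ml), and cells that received Dex together with either protein at the same doses. All groups were of the same line in the same serum-containing medium. The labels give each array a number, 1 or 2, and do not say whether duplicates came from separate cultures, so each p-value reflects only variation among these arrays, possibly technical.

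As background, interferons bind surface receptors that activate JAK kinases and STAT proteins. IRF9 is the DNA-binding partner in the complex that recognises interferon-stimulated response elements, while gamma-activated sites, such as the one in the Irf1 promoter, are a separate class of element in genes that respond to gamma-interferon. IRF3 and IRF7 induce interferon genes downstream of nucleic acid sensors, IRF2 counteracts IRF1 at shared sites, and IRF4 and IRF8 act mainly in lymphoid and myeloid cells, often with a partner factor. USP18 removes the ubiquitin-like protein ISG15 from its targets and dampens signalling at the type I interferon receptor, and IFIT1 is an antiviral protein that binds foreign RNA. Usp18, Isg15 and Ifit1 are classical targets of type I interferon.

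RefSeq start-site windows (GRCm38.p6) were held for 9 of the 10 members. The upstream parts of 3 are printed because they place the gene that varied most between arrays, Irf8, beside a classical gamma-interferon target, Irf1, and a classical type I interferon target, Ifit1. Each run is 250 bases, 5′ to 3′ on the gene's strand, and ends at the base before the start site. Capitals mark gamma-activated sites, searched as TTCNNNGAA, in Irf8 and Irf1, and the core of the interferon-stimulated response element in Ifit1, searched on both strands as GAAA, any 2 bases and GAAA.
Irf8 chr8:120736108-120736357: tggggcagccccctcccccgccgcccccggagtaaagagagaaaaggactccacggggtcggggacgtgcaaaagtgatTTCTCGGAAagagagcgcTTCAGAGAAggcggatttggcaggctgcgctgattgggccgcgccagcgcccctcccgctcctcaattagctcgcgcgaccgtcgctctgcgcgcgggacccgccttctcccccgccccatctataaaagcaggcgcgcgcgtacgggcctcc
Irf1 chr11:53769764-53770013: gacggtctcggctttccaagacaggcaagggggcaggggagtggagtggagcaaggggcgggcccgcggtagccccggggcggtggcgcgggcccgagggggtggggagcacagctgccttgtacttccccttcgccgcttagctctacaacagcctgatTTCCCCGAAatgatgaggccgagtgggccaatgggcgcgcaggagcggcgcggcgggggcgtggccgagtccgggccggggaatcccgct
Ifit1 chr19:34640639-34640888: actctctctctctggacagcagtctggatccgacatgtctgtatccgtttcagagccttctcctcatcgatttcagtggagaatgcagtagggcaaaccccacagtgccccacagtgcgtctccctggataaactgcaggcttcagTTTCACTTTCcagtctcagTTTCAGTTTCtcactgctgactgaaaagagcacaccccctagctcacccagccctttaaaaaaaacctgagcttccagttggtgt

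The Irf8 window held 2 gamma-activated site matches, beginning 171 and 153 bases before the start site, and no match to the response element core. The Irf1 window held 1 gamma-activated site match, 90 bases before the start. A second window was held for each of these genes, at a downstream start, and neither held a gamma-activated site match. In Ifit1 the core was matched at 2 places on the opposite strand, 104 and 85 bases before the start. A glucocorticoid response element, searched on both strands as GNACA, any 3 bases and TGTNC, was not matched in either of the Irf8 windows. Among all 32851 windows of 300 bases, 8.3% held a gamma-activated site match, 3.44% the response element core and 0.475% the glucocorticoid element. These matches describe the letters of the windows and were not measured for binding.

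One feature of the arrays bears on every Dex comparison. Tsc22d3, a direct glucocorticoid receptor target, had signals of 58.7 to 109 in the 3 no-Dex arrays numbered 2 (unstimulated, IL-9, CCL1), and of 230 to 347 in the 3 no-Dex arrays numbered 1, which overlapped the 260 to 422 of the 6 Dex arrays. The libraries labelled as no-Dex and numbered 1 therefore went against their label at glucocorticoid targets, and Dex results are given both over all arrays and within each number. The array CCL1 2 was deposited in a separate table, under a different array platform from the others. Its values are shown but it did not enter the main tests, so CCL1 without Dex rests on 1 array there. Among the listed T-lineage markers, Thy1, Lat and Cd3g had mean signals of 1111, 924 and 591 in this line. Ptprc, also listed but shared by other leukocytes, had 2559. Cd2, Cd5, Cd247 and Trat1 lay below the filter on low signals. That filter was a mean log2(signal + 16) of 4.48, which a constant signal of 6.32 would give. None of 6 B-lineage markers passed that filter, and the 12 myeloid and dendritic markers summed to signals of 50.3 to 89.1 per array, with Csf1r the highest at a mean of 13.9.

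Irf8 was high or low according to Dex in the arrays numbered 2 and high in all arrays numbered 1. For the brighter of its 2 probe sets the signals of the arrays numbered 2 were 15.6 in unstimulated, 4.93 in IL-9 and 17.5 in CCL1 cells, and 87.4 in Dex, 30.6 in Dex+IL-9 and 68.2 in Dex+CCL1 cells. In the arrays numbered 1 the signals were 82.8, 50.4 and 89.9 without Dex and 64.4, 50.5 and 74.9 with Dex, in the same order. The 3 no-Dex arrays numbered 2 thus lay below all 9 others, and the remaining 3 classes overlapped fully. Across all kept probe sets, 1.5% had the no-Dex arrays numbered 2 below all 9 others. The dimmer Irf8 probe set, which the annotation derives from the same accession, read 21.3, 12.9 and 9.40 in the no-Dex arrays numbered 2 against 70.8, 26.5 and 49.9 with Dex. Its arrays numbered 1 read 81.0, 43.1 and 55.8 without Dex and 69.3, 42.8 and 54.2 with Dex. Over the 11 arrays of the larger table both probe sets followed each other with a Pearson r of 0.95, a description of 1 gene on shared arrays.

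**Figure D1:**
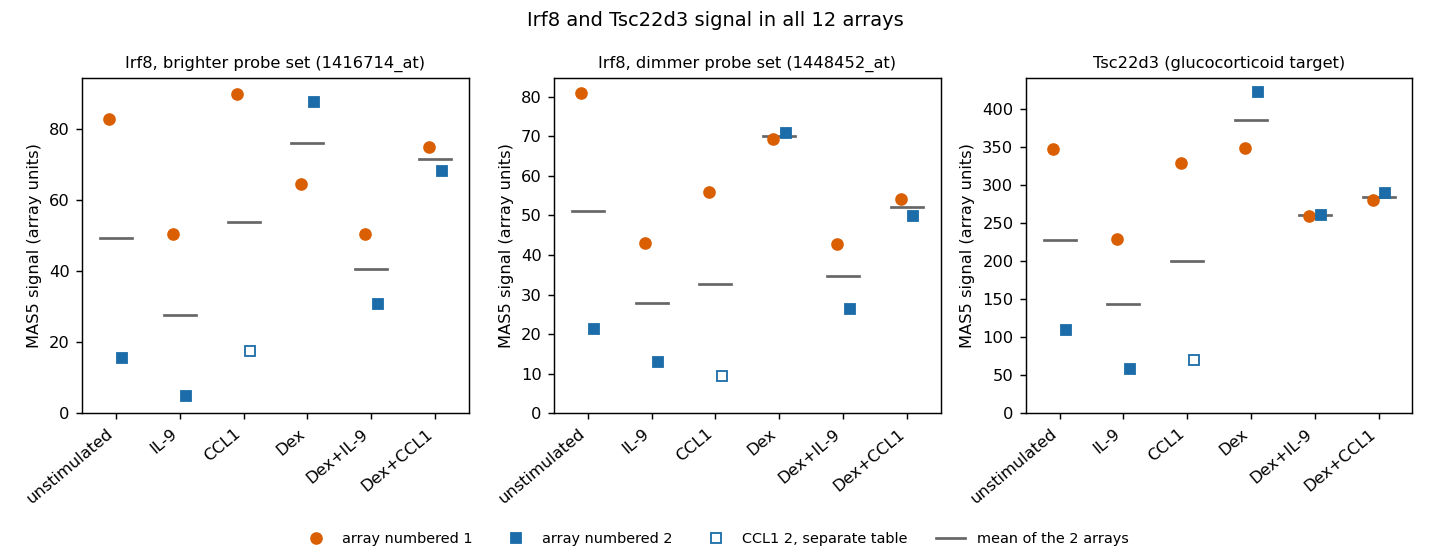
MAS5 signal (array units, linear axis from 0) of both Irf8 probe sets and of the glucocorticoid target Tsc22d3 in each of the 12 arrays, by group. Circles are arrays numbered 1, squares arrays numbered 2, the open square is the separately deposited array CCL1 2, and bars are means of the 2 arrays; for all 3 probe sets the no-Dex arrays numbered 2 are the lowest points, from 4.93 to 17.5 for the brighter Irf8 probe set.

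In class means, the brighter Irf8 probe set stood at 12.7 ± 6.78 (SD, n = 3) in the no-Dex arrays numbered 2, 62.1 ± 28.9 in the Dex arrays numbered 2, 63.3 ± 12.2 in the Dex arrays numbered 1 and 74.4 ± 21.0 in the no-Dex arrays numbered 1. Each class held 1 array of each stimulus condition, so these SDs include differences between stimuli and are not a spread of replicates. Only the lowest class, which held CCL1 2, was separated from its neighbour by more than these SDs. Within the arrays numbered 2, Irf8 rose with Dex by 1.42 on the log2(signal + 16) scale (SE 0.19, limma adjusted p = 0.0046), and the dimmer probe set by 0.92 (SE 0.18, adjusted p = 0.04). In untransformed mean signals the Dex arrays were 4.89 and 3.38 times the no-Dex arrays. The no-Dex means include CCL1 2, which did not enter the fit. The Irf8 probe sets were 2 of the 12 member probe sets tested, against 0.597% of all kept probe sets past the threshold in this comparison. Leaving out the array unstimulated 2 or IL-9 2 ended the call of the brighter probe set (adjusted p = 0.0765 and 0.056), and the dimmer kept its call only without Dex+IL-9 2, with adjusted p from 0.0278 to 0.561.

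Within the arrays numbered 1, Irf8 differed by -0.17 (SE 0.16, adjusted p = 1.0), with a 95% interval of -0.53 to 0.18. The Dex effect thus differed between numbers by 1.59 (SE 0.25, adjusted p = 0.0219) for the brighter probe set, among 0.206% of probe sets called, and by 1.00 (SE 0.23, adjusted p = 0.173) for the dimmer. The first of these calls was lost when any 1 of 8 of the 11 arrays was left out, with the difference then between 1.38 and 1.78 over all 11. Without Dex, array number 2 was lower than number 1 by -1.67 (SE 0.19, adjusted p = 0.000866) and -1.18 (SE 0.18, adjusted p = 0.00651) for the brighter and the dimmer probe set, where 0.796% of all were called. The dimmer probe set's call was lost without unstimulated 1, unstimulated 2 or IL-9 1 (adjusted p = 0.0542 to 0.164). With Dex the same differences were -0.09 and -0.18, neither past the threshold (0.0221% called). Averaged over numbers and stimuli, Dex changed no member past the threshold: Irf8 differed by 0.34 (SE 0.33, adjusted p = 1.0), and 0 of 13575 probe sets passed (0%; 208 had an unadjusted p under 0.05). An alternative chosen after the data were seen left out the 3 no-Dex arrays numbered 1, included CCL1 2 and had additive terms for Dex and stimulus. Its Dex difference was 1.44, with 1 array in each no-Dex group. The arrays left out were those with high Irf8 without Dex, so a larger difference followed from the choice of arrays. Tsc22d3 moved with Irf8 in these fits, by 1.79 with Dex in the arrays numbered 2 and by -1.71 between numbers without Dex; whether the no-Dex arrays numbered 1 had received Dex was not tested.

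Irf8 also stood lower with IL-9. In each of the 4 classes formed by Dex and number, the IL-9 array had the lowest brighter-probe-set signal of 3, a pattern held by 3.2% of kept probe sets, and for the dimmer probe set this was so in 3 of the 4 classes. In the model with terms for stimulus, Dex and number, the dimmer probe set fell by 0.66 with IL-9 (SE 0.13, adjusted p = 0.0442), where 0.501% of probe sets were called lower, and the brighter differed by -0.65 (SE 0.14, adjusted p = 0.0616). The dimmer probe set's call was lost whichever of the 11 arrays was left out (adjusted p = 0.0538 to 0.211), without the filter (0.105) and after median centring (0.0624). Averages without a number term gave the same differences with adjusted p of 0.574 and 0.661. Of the 8 glucocorticoid receptor targets tested in the same model, Tsc22d3 fell by 0.59 (SE 0.10, adjusted p = 0.0232) while Sgk1, a kinase, rose by 2.23 (SE 0.12, adjusted p = 2.2e-06), and the other 6 were not called. Pdgfrb, a stromal receptor kinase, also fell with IL-9, by 0.67 (SE 0.11, adjusted p = 0.0199). The 7 fibroblast and stromal markers summed to signals of 222 to 248 in the 4 IL-9 arrays and 206 to 319 in the 4 CCL1 arrays. In the 4 arrays without a stimulus the sum was 296 to 427. Nearly all of this was Pdgfrb, at a mean of 270.4, while Col1a2 had a mean of 7.22 and Col1a1, Col3a1, Dcn, Lum and Pdgfra lay under the filter. CCL1 differences of Irf8 in that model were 0.00 (SE 0.16) and -0.32 (SE 0.15, adjusted p = 0.464).

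Usp18, the ISG15 protease, was high in every array with CCL1. Its signals were 31.1 and 50.1 with CCL1 alone and 31.0 and 30.7 with Dex+CCL1, the 50.1 coming from the separately deposited array. Without CCL1 they were 6.13 and 11.9 in unstimulated, 9.53 and 3.12 in Dex, 8.51 and 15.3 in IL-9, and 8.61 and 7.29 in Dex+IL-9 cells. The lowest of the 4 CCL1 arrays was thus above the highest of the 8 others, which 0.582% of kept probe sets showed. The means were 35.7 ± 9.61 (SD, n = 4) and 8.79 ± 3.67 (SD, n = 8), a ratio of 4.06. Each SD spans several groups. Over the 3 CCL1 arrays of the larger table alone the mean was 30.9 ± 0.18 (SD, n = 3), a ratio of 3.52. The 4 groups without CCL1 overlapped one another and lay around the filter level of 6.32.

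**Figure D2:**
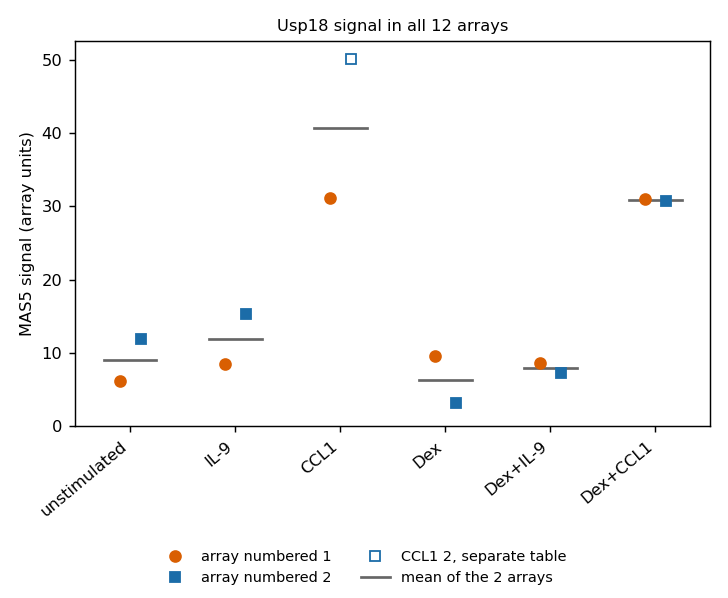
MAS5 signal of Usp18 (array units, linear axis from 0) in the 12 arrays by group; circles are arrays numbered 1, squares arrays numbered 2, the open square the separately deposited array CCL1 2, and bars the means of 2 arrays. The 4 arrays with CCL1 lie at 30.7 to 50.1 and the other 8 at 3.12 to 15.3.

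In the model with stimulus, Dex and number terms, Usp18 rose with CCL1 by 1.09 on the log2(signal + 16) scale (SE 0.14, 95% interval 0.78 to 1.40, limma adjusted p = 0.012). It was the only member past the threshold, where 0.162% of all kept probe sets were called higher. The call was lost without unstimulated 1, Dex 1, Dex+CCL1 1, Dex+CCL1 2 or CCL1 1 (adjusted p = 0.0528 to 0.128), while the difference stayed between 1.02 and 1.17. With a pseudocount of 1 in place of 16 the difference was 2.23 and with 64 it was 0.44, both past the threshold. The group-mean model, which has no number term, gave 1.00 averaged over the 2 Dex conditions (SE 0.17, adjusted p = 0.25), with 1 probe set called in all (0.00737%). There Usp18 was 0.92 higher than in unstimulated cells (SE 0.27, adjusted p = 1.0) and 1.08 higher within Dex (SE 0.22, adjusted p = 0.469). Without the array Dex 1 the averaged difference was 1.11 and passed (adjusted p = 0.0308), as did that within Dex (1.29, adjusted p = 0.0186). The CCL1 effects with and without Dex differed by 0.16 (SE 0.35, 95% interval -0.60 to 0.93, adjusted p = 0.997), a sign that turned to -0.08 when CCL1 2 was added.

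IL-9 did not change Usp18 past the threshold (0.14, SE 0.16, 95% interval -0.20 to 0.48), and the direct difference of CCL1 minus IL-9 was 0.87 (SE 0.17, adjusted p = 0.106), among 0.236% of probe sets called. With CCL1 2 added it was 0.99 (adjusted p = 0.0241). Dex changed Usp18 by -0.13 on average (SE 0.14) and by -0.44 in the arrays numbered 2 (SE 0.17, adjusted p = 0.398). Irf8 and Usp18 were therefore called in different comparisons, and their r over the 11 arrays was 0.11 and -0.06 for the 2 Irf8 probe sets.

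The remaining members showed no call. Irf3, the constitutive sensor-activated factor, had 4 probe sets, of which the brightest read 113 to 157 over the 12 arrays. The others spanned 34.9 to 59.9, 2.61 to 26.3 and 6.29 to 18.8, and the CCL1 and Dex differences of the 4 did not share a sign. Irf7, the interferon-amplifying factor, had signals of 0.639 to 18.9, and its mean log2(signal + 16) of 4.47 was just below the filter, so it was not tested; its highest value was in the array CCL1 2 and its second highest, 11.6, in IL-9 1. Irf9, the STAT partner, lay between 11.8 and 26.4.

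Irf1, the gamma-interferon target, spanned 48.8 to 91.0. Its signals were 80.5 and 54.2 in unstimulated, 56.0 and 91.0 in IL-9, and 48.8 and 71.3 in CCL1 cells, so the groups overlapped. With CCL1 it differed by -0.16 (SE 0.17) and with IL-9 by 0.19 (SE 0.15). Irf2, its counterpart, stayed within 22.1 to 36.9. Irf4, the lymphoid relative of Irf8, read 0.438 to 28.1 in one probe set and 4.89 to 12.5 in the other. The former differed by 0.48 with IL-9 (SE 0.16, adjusted p = 0.213) and by 0.66 between array numbers without Dex (SE 0.21, adjusted p = 0.275). The latter differed by -0.03 (SE 0.14) and 0.24 (SE 0.18). Ifit1, whose promoter carries the pair of response elements printed above, remained at 0.431 to 11.8 in all 12 arrays, with the CCL1 arrays at 3.97, 9.25, 4.86 and 1.43, and was under the filter.

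Of the 9 probe sets other than Irf8 and Usp18 that were tested, none passed in any comparison given here. Their differences ranged from -0.23 to 0.13 with Dex in the arrays numbered 2, from -0.26 to 0.48 with IL-9 and from -0.17 to 0.20 with CCL1 in the model with number terms. Members that share an accession, as those of Irf4 and of Irf8 do, are not separate measurements of a condition.

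**Figure D3:**
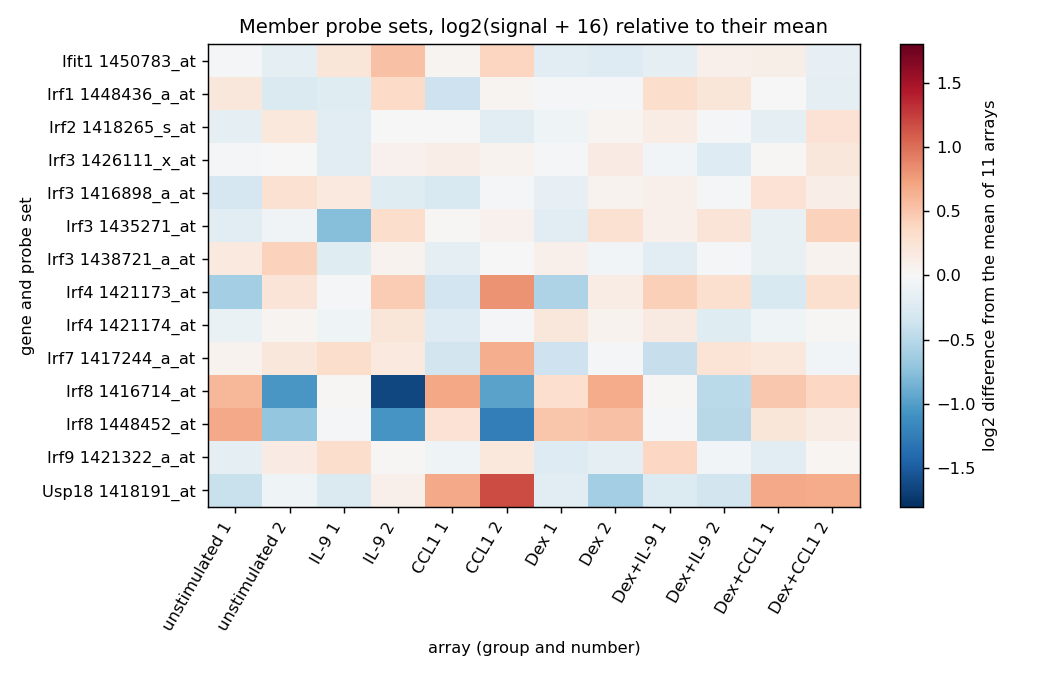
Heat map of log2(signal + 16) of the 14 member probe sets in the 12 arrays, each relative to its mean over the 11 arrays of the larger table (red higher, blue lower). The deepest blue cells of Irf8 fall in the no-Dex arrays numbered 2, with paler blue in Dex+IL-9 2. The deepest red cells of Usp18 fall in the 4 CCL1 arrays, and rows of Irf7 and Ifit1 are under the filter.

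Of 60 other interferon-linked genes tested, 1 was called higher with Dex in the arrays numbered 2, 1 higher with IL-9 and 1 lower with CCL1, where 0.508%, 0.317% and 0.162% of all probe sets were called in those directions in the model with number terms. At an unadjusted p under 0.05 there were 5 of the 60 with Dex (8.33%, beside 10.5% of all probe sets), 16 with IL-9 (26.7% beside 13.5%) and 10 with CCL1 (16.7% beside 10.8%) in that limma model. The lists, chosen with earlier results of these data known, named 114 genes beyond the members, of which 89 had a probe set analysed here and 60 passed the filter. All 7 interferon genes on the array were under the filter, with Ifnb1 the highest at a mean signal of 5.51. All 8 genes of interferon receptors, kinases and STATs analysed here passed the filter and were tested, none passed, and Jak1, Jak2, Ifnar2 and Ifnar1 had mean signals of 754, 251, 143 and 86.5. Irf5, a further family member, had a mean of 18.7 and did not pass either. For the conjugation of ISG15, the process that Usp18 reverses, Uba7 (the activating enzyme) differed by 0.27 with CCL1 (SE 0.18, adjusted p = 0.637), and Ube2l6, the conjugating enzyme, was under the filter.

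With CCL1, 16 of the 60 genes had a positive and 44 a negative difference, with a median of -0.15, beside a median of -0.02 and 45.2% positive over all 7507 genes. Among 26 antiviral genes tested 5 differences were positive and 21 negative, and in class I antigen presentation 2 and 9. A single gene of the 60 passed, where 0.162% of all probe sets were called lower: Tap2, a subunit of the peptide transporter, fell by 0.63 (SE 0.11, adjusted p = 0.0346). Its signals were 259 to 460 in the 4 CCL1 arrays and 348 to 671 in the 8 others, so the ranges overlapped, and its call was lost in 9 of 11 leave-one-out fits (adjusted p = 0.0312 to 0.23), with no filter (0.0668), after median centring (0.0729) and with no intensity trend (0.0928). Samhd1, a nucleotide-hydrolysing restriction factor, read 102 to 174 with CCL1 and 150 to 441 without, a difference of -0.69 (SE 0.14, adjusted p = 0.0657). Usp18 was called higher in the same fit, while the signs of the 60 genes, measured on shared arrays, were not tested as a set.

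With Dex in the arrays numbered 2, 34 of the 60 genes were positive and 26 negative, with a median of 0.04 beside 0.00 over all genes. Samhd1 alone was called: it rose by 0.92 (SE 0.16, adjusted p = 0.0292; 0.508% of all probe sets were called higher), its signals being 150, 154 and 102 in the no-Dex arrays numbered 2 against 237, 389 and 147 with Dex. As with Irf8, its arrays numbered 1 were high without Dex, at 236, 395 and 174, and number 2 was lower than number 1 by -0.999 (SE 0.16, adjusted p = 0.0145). The Dex call of Samhd1 was lost in 7 of 11 leave-one-out fits, and without IL-9 2 the difference was 0.59 (adjusted p = 0.389); it was also lost with no filter (0.0651) and no intensity trend (0.0669). The call between numbers was lost without IL-9 1 (-0.98, adjusted p = 0.123) or IL-9 2 (-0.67, adjusted p = 0.256).

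With IL-9 the split was 32 positive and 28 negative, and 1 gene was called (0.317% of probe sets were called higher in the model with number terms). Socs1, a feedback inhibitor of JAK signalling placed in the list of gamma-interferon targets, rose by 1.17 averaged over the 2 Dex conditions (SE 0.15, adjusted p = 0.0103), 1 of 13 probe sets called (0.0958%). Its signals were 86.2 and 68.1 with IL-9, 104 and 108 with Dex+IL-9, and 7.11 to 37.8 in the 8 other arrays. The share of all probe sets with this order of arrays, or with that of the CCL1 arrays, is not given here. The CCL1 arrays were the lowest 4, at 7.11 to 23.6, and CCL1 minus IL-9 was -1.71 (SE 0.17, adjusted p = 0.00119). Its IL-9 call was lost in 4 of 11 leave-one-out fits, with the difference between 1.09 and 1.26. It was also lost in 3 of 13 other settings, over which the difference was 0.70 to 1.51. The 3 were a pseudocount of 1, the arrays numbered 2 alone and the set without the no-Dex arrays numbered 1.

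**Figure D4:**
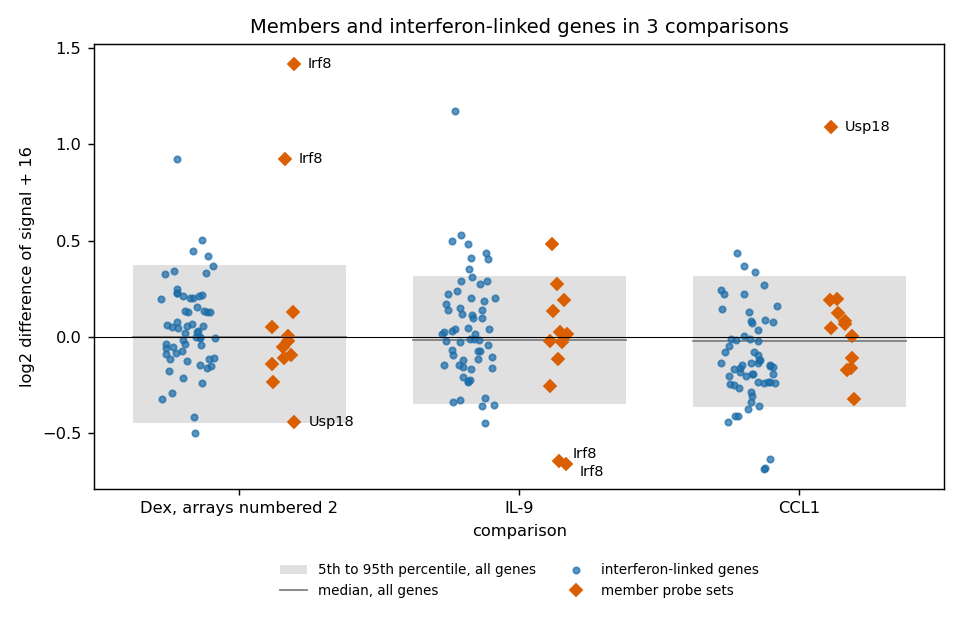
Differences on the log2(signal + 16) scale for Dex within the arrays numbered 2, IL-9 and CCL1, from the model with stimulus, Dex and number terms. Circles are the 60 interferon-linked genes, diamonds the 12 tested member probe sets, and grey bands the 5th to 95th percentile of all tested genes; the Irf8 diamonds lead the Dex column at 1.42 and 0.92 and Usp18 the CCL1 column at 1.09.

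By Pearson r of log2(signal + 16) over the 11 arrays of the larger table, the genes whose pattern was most like that of the brighter Irf8 probe set among 7506 were Ccr8 (0.95), Tsc22d3 (0.95), Rcsd1 (0.95), Galc (0.94) and Bves (0.94). Ccr8, the receptor of CCL1, read 159, 86.9 and 243 in the no-Dex arrays numbered 2 and 271 to 623 in the other 9. For Usp18 they were Tuba8 (0.94), Samsn1 (0.91), Wdr4 (0.89), Tes (0.89) and Abat (0.89). Tuba8, a tubulin isotype, read 384 to 443 in the 4 CCL1 arrays and 85.7 to 211 in the 8 others. In CCL1 2, which was outside the correlation, Samsn1 (48.1) and Wdr4 (76.4) lay within the range of the arrays without CCL1. Tes (127) and Abat (149) lay above that range there. These correlations describe 11 arrays that share their groups. No interferon-linked gene was among either set of 5, but only 60 of the 7506 genes compared were interferon-linked. With so small a share, that absence does not tell whether such genes follow Irf8 or Usp18.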

How the data were processed

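Total RNA was measured on 12 Affymetrix arrays, 2 per group. The deposited values were MAS5 signal intensity values on a linear scale, per the submitters' processing notes, in 2 tables of 11 and 1 arrays; the MAS5 version is not given in these sources, and detection calls were not used here. The mean signal after trimming 2% at each end was 99.1 to 99.4 in every array, so a shift shared by most genes would be hidden, and the number of arrays limits the precision.

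Control probe sets (64) were removed, leaving 22626. Values were taken as log2(signal + 16), which understates folds of low signals. Probe sets with a mean above the 40th percentile were tested, 13575 in all, 12 of them members. Symbols came from the platform annotation (20380 probe sets with 1 symbol, 691 with several and 1555 with none; 7507 genes tested, by the highest probe set). Linear models were fitted in limma 3.58.1 (R 4.3.3) over the 11 arrays of the larger table, with an intensity trend, Benjamini-Hochberg adjustment over all tested probe sets and a threshold of 0.05. One model had a mean per group, the other terms for stimulus and for Dex by array number, each with 5 residual degrees of freedom. Where a group had 1 array, its spread was taken from the others. The fits were tested on simulated data.

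The members, the lists and the model split by number were chosen with earlier results of these data known. All members were named, with genes of the lists past the threshold, up to 4 others per list by mean signal, and the 5 genes most like Irf8 and Usp18. Alternatives were other pseudocounts, filters, normalizations, no trend, a replicate block, CCL1 2 added, 1 probe set per gene and each array left out. Fits of 1 number alone and without the no-Dex arrays numbered 1 were added after the data were seen. They had additive terms for Dex and stimulus, and those with no-Dex arrays numbered 2 included CCL1 2.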

Additional observations from a re-analysis of the deposited data

Results flagged for a closer look

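The Dex effect on Irf8 (the brighter probe set) differed between the arrays numbered 2 and those numbered 1 by 1.59 on the log2(signal + 16) scale (SE 0.25, limma adjusted p = 0.0219), tested as the difference itself. Dex arrays were above no-Dex arrays for each of the 3 stimulus conditions in number 2. The CCL1 pair held the array CCL1 2, which did not enter the fit. The share of all probe sets with this order is not given here. The call was lost in 8 of 11 fits with 1 array left out.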

How the results depend on the processing

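The limits rest on 2 arrays per group, low signals of Usp18, Irf4, Irf7 and Ifit1, and arrays whose labels and glucocorticoid targets disagree. In additive fits, Irf8 differed with Dex by 1.40 in the arrays numbered 2 alone and reversed to -0.17 in those numbered 1 alone. It differed by 1.44 without the no-Dex arrays numbered 1. These 3 settings left groups of 1 array. The arrays numbered 2 alone, and the set without the no-Dex arrays numbered 1, included CCL1 2 here and below. Within the arrays numbered 2, Irf8 kept its call under all 9 other settings, at 0.67 to 2.40, and leaving out single arrays gave 1.20 to 1.60. Member calls there fell from 2 to 1 with a pseudocount of 64, no filter or 1 probe set per gene, and were 0 to 2 without single arrays; interferon-linked calls were 0 with no filter or no trend and 0 to 1 without single arrays. The difference of the Dex effect on Irf8 was 0.79 with a pseudocount of 64 (adjusted p = 0.08), 1.59 with no filter (0.068) and 1.38 to 1.78 without single arrays. Usp18 with CCL1 and number terms was called under all 8 other settings (0.44 to 2.23) and was 1.02 to 1.17 without single arrays. Averaged, it was 0.98 and called in the arrays numbered 1 alone (0.0428) and 0.90 to 1.11 without single arrays; member calls were then 1 in the arrays numbered 1 alone and 0 to 1 without single arrays, and interferon-linked calls 2 in the arrays numbered 1 alone. Within Dex it was 0.88 to 1.29 without single arrays. The interaction reversed to -0.083 with CCL1 2 added and ranged from -0.046 to 0.37 without single arrays. CCL1 minus IL-9 passed at 0.36 with a pseudocount of 64 (0.0401), 0.99 with CCL1 2 added (0.0241), 0.94 in the arrays numbered 1 alone (0.0312) and 1.01 without the no-Dex arrays numbered 1 (0.0315). Interferon-linked calls with IL-9 were 0 with a pseudocount of 1, in the arrays numbered 2 alone and without the no-Dex arrays numbered 1, 3 in the arrays numbered 1 alone, and 0 to 1 without single arrays. Counts of member and interferon-linked calls are given here without the share over all probe sets in each setting. They do not tell whether such calls exceed the general rate. The cause of the changes between settings was not tested. Usp18 gave no value under the filter at the 60th percentile, and CCL1 without Dex could not be fitted without CCL1 1.

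With the replicate number as a block, Usp18 with CCL1 averaged was 1.01 (adjusted p = 0.157), Irf8 with Dex averaged 0.46 (1.0), and calls over all probe sets moved from 13 to 18 for IL-9 averaged and from 32 to 41 for CCL1 minus IL-9. The Usp18 differences with CCL1, Irf8 with Dex and Socs1 with IL-9 from the group-mean model kept their side of the threshold; the model with number terms already holds the number and was given no further block. Among the 5 groups of the larger table, same-numbered arrays had correlations of deviations of -0.00506 to 0.307, 5 of 10 above 0.1, and the 5 pairs with CCL1, which spans both tables, had 0.185 to 0.350; since not every pair was above 0.1, the numbers were not taken as pairs.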
